A study of Mus musculus with 2 samples.

Results

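Satellite cells, the resident stem cells of skeletal muscle, carry a set of surface and secreted proteins while they rest, and 8 genes of that kind are described here: Chodl, Calcr, Tenm4, Gas1, Cd34, Vcam1, Megf10 and Hmcn2. They were taken by symbol from the 32286 features of the count tables, and all 8 were found. Their unique molecular identifiers (UMIs, 1 per captured RNA molecule) were counted in satellite cells of 2 muscles, biceps and recto femoris, taken on day 5 after an injury. The animals were Pax3GFP/+ mice. In them 1 Pax3 allele carries GFP, so that GFP marks the satellite cells in which Pax3, a transcription factor, is active. The study separated GFP+ (PAX3+) from GFP- (PAX3-) satellite cells by flow cytometry and loaded 20000 cells of each into a droplet 3′ single-cell assay, which gave 1 library per fraction. All cells of both groups therefore share the reporter allele, the injury and the time point, and the labels also call their genotype wild-type. The labels used here give no uninjured cells and no number, age or sex of animals.

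Quiescent satellite cells sit between the muscle fibre and its basement membrane and express the transcription factor Pax7. After injury they enter the cell cycle, then most of them switch on Myog (myogenin) and fuse into fibres, while some return to quiescence. Notch signalling, acting through the DNA-binding protein RBPJ, and signalling by the calcitonin receptor are known to hold them at rest. Among the 8 genes, Calcr encodes that receptor, which collagen V can engage. Gas1 encodes a lipid-anchored growth arrest protein that binds hedgehog ligands and modulates the receptor RET, and Megf10 a receptor with EGF repeats that is known from proliferating myoblasts as well as resting cells. Vcam1 is an immunoglobulin-type adhesion molecule that integrins bind, Cd34 a sialomucin, Chodl a membrane lectin, and Tenm4 a teneurin. Hmcn2, hemicentin 2, is a secreted matrix protein.

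With 1 library per fraction no test between fractions was possible, so no p-value is given and each difference is one between these libraries. The intervals (95%, exact) cover counting error only. Cells were barcodes that reached 1000 UMIs and 500 genes with no more than 10% of UMIs from mitochondrial genes: 604 in GFP+ and 2683 in GFP-, with medians of 18534 and 14663 UMIs. Only 2 kept barcodes occurred in both libraries. The sort gene Pax3 stood at 19.8 CPM in GFP+ and 4.95 CPM in GFP- cells, where CPM is the summed UMIs of a group scaled to a common total, and Pax7 at 185 and 142 CPM. Clusters led by macrophage, mural and glial genes held 85 GFP+ and 207 GFP- cells. Doublets were in effect not removed, since the caller marked 3 cells in each library.

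The members lie on 8 different chromosomes (GRCm38, GENCODE M21), for example Chodl at chr16:78930948-78951733, Calcr at chr6:3685680-3764714, Hmcn2 at chr2:31314415-31460738 and Tenm4 at chr7:96171246-96911093, and all are protein coding. The 250 bases before the transcription start are shown for the 3 members that were at least 2-fold higher in both Erfe-high and Chodl-high cells of both libraries at 20 CPM or more, as described below. They are RefSeq windows on GRCm38.p6, chr16:78930698-78930947 (plus strand) for Chodl, chr2:31314082-31314331 (plus strand) for Hmcn2 and chr7:96170994-96171243 (plus strand) for the upstream start of Tenm4. Capitals mark TGGGAA, the core letters of the RBPJ motif, and TGAGTCA, the AP-1 motif, searched on both strands.
Chodl: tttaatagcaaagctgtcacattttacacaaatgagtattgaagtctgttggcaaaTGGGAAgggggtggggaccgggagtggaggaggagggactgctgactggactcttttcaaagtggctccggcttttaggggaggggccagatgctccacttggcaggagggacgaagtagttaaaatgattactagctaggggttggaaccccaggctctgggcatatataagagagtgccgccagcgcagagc
Hmcn2: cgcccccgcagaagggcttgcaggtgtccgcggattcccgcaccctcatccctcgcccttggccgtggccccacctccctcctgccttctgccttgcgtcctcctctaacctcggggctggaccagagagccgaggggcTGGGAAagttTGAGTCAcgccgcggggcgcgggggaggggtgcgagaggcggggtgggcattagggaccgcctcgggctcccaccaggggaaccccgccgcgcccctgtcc
Tenm4: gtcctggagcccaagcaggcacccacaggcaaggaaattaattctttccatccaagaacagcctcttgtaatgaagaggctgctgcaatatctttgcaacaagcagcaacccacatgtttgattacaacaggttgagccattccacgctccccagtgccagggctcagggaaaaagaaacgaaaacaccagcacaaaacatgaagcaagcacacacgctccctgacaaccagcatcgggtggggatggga
In Chodl the letters TGGGAA begin 194 bases before the start. Hmcn2 holds TGGGAA 111 bases and TGAGTCA 101 bases before its start, without overlap between the motifs. The Tenm4 window holds neither. RefSeq windows were found for 6 of the 8 members (8 windows; not Vcam1 and Megf10), and those of Calcr, Gas1 and Cd34 hold neither motif; CAGCTG, an E-box of the kind myogenic factors bind, was in none of the 8. Of 32851 windows over all genes 21.6% held TGGGAA, 13% CAGCTG and 4.46% TGAGTCA, and a match describes letters, not a site.

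The first comparison asked which members differed between the PAX3+ and PAX3- fractions. Hmcn2, Calcr and Cd34 were more than 2-fold higher in the GFP+ library, Chodl, Gas1 and Tenm4 were higher by less than 2-fold, and Vcam1 and Megf10 were close to equal or slightly lower. Hmcn2 stood at 61.7 CPM in GFP+ cells and 18.9 CPM in GFP- cells, a ratio of 3.26 (2.95 to 3.61). Calcr was at 9.35 and 2.98 CPM, a ratio of 3.14 (2.42 to 4.06) from 112 and 132 UMIs. Cd34 was at 13.7 and 5.08 CPM, a ratio of 2.69 (2.19 to 3.31). A matrix protein, a receptor and a sialomucin thus stood furthest apart.

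Chodl was at 161 and 89.9 CPM in the GFP+ and GFP- libraries (1.8-fold, 1.70 to 1.90), Gas1 at 183 and 107 CPM (1.71-fold, 1.62 to 1.79) and Tenm4 at 20.1 and 14.6 CPM (1.38-fold, 1.18 to 1.60). Vcam1, the adhesion molecule, was at 248 and 245 CPM (1.01-fold, 0.971 to 1.05). Megf10 was at 45.1 and 53.4 CPM (0.845-fold, 0.768 to 0.928). Its ratio was the only one of the 8 whose interval lay below 1, and it was 1.0 when the mean of per-cell levels was taken, where Chodl (2.25) and Gas1 (2.63) also passed 2-fold. Of all genes at 20 CPM or more in at least 1 library, 3.8% were at least 2-fold higher in GFP+ and 0.516% at least 2-fold lower, and of the 6 members among them 1, Hmcn2, was higher. At 5 CPM or more, where all 8 members count and 3 were higher, the shares were 5.17% higher and 1.08% lower. Hmcn2 and Tenm4 reached 20 CPM, and Calcr 5 CPM, through the GFP+ library alone, so these counts are a description and no support. The median difference over all genes at 20 CPM was -0.11 on the log2 scale, opposite in sign to that of the 6 members that were higher.

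The libraries also differed in their mix of cells. Erfe-high cells, defined by at least 3 UMIs and at least 2 per 10000 of Erfe, the gene of the hormone erythroferrone, made up 62 of 604 GFP+ cells (10.3%, 7.96 to 13%) and 28 of 2683 GFP- cells (1.04%, 0.695 to 1.5%). Chodl-high cells, defined the same way, made up 194 (32.1%) and 482 (18.0%). Without the Erfe-high cells the ratio of Hmcn2 was 2.55, of Calcr 2.51, of Cd34 1.83 (3.18 when cells with endothelial UMIs were left out as well), of Chodl 1.51 and of Gas1 1.33; 3.76% of all genes at 20 CPM were then 2-fold higher and 0.499% lower. Without the whole cluster led by Erfe and Chrdl2, which held 119 GFP+ and 48 GFP- cells, an alternative chosen after the data were seen, 0 of the 8 members were 2-fold higher, or 1 (Cd34, 2.13-fold) when the cells with endothelial UMIs described below were left out as well. Hmcn2 was then at 1.74-fold, Calcr at 1.51-fold, Chodl at 1.23-fold, Cd34 at 1.19-fold, Gas1 at 1.13-fold and Tenm4 at 0.940-fold. When instead the GFP+ cells were weighted to the mix of classes in the GFP- library, Hmcn2 stood at 2.14, Calcr at 2.13, Cd34 at 1.58, Gas1 at 1.28, Chodl at 1.21 and Tenm4 at 1.03.

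**Figure D1:**
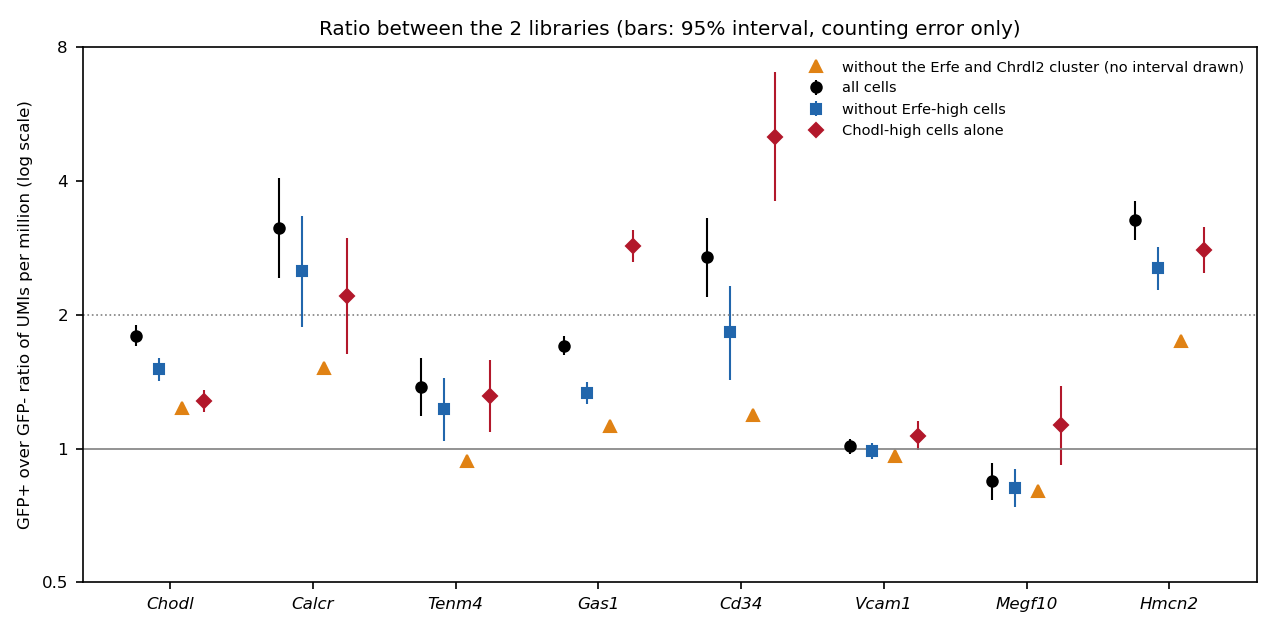
Ratio of the GFP+ to the GFP- level of each member (vertical axis, log scale) for all cells, without Erfe-high cells, without the cluster led by Erfe and Chrdl2, and within Chodl-high cells; bars, where drawn, are 95% intervals for counting error. Hmcn2, Calcr and Cd34 lie above 2 over all cells, each lies below 2 without that cluster (Cd34 at 2.13 when cells with endothelial UMIs are also left out, not drawn), and Vcam1 lies near 1 in every set.

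Cd34 is also a gene of endothelial cells. In the GFP- library 13 cells held at least 5 UMIs of the endothelial list (Pecam1, Cdh5, Kdr, Emcn, Cldn5, Flt1, Egfl7), and these cells carried 91 of the 225 Cd34 UMIs of the library. Their Cd34 level was 463 CPM, and none of them was Chodl-high or Erfe-high, although 8 lay in myogenic clusters. The GFP+ library held 1 such cell, with 0 Cd34 UMIs. In the Erfe-high cells of both libraries all 7 endothelial genes were at 0, and their summed level in Chodl-high cells was 0.865 CPM in GFP+ and 1.06 CPM in GFP-. Without these cells Cd34 was at 13.7 CPM in GFP+ and 3.04 CPM in GFP-, and its ratio was 4.51 (3.57 to 5.71). Without the Erfe-high cells too it was 3.18 (2.42 to 4.17), and without the cluster led by Erfe and Chrdl2 too 2.13 (1.54 to 2.93). This limit on endothelial UMIs was set after the data were seen.

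The next question was where the members are found among the cells. In the Erfe-high cells 6 of the 8 members (Chodl, Calcr, Tenm4, Gas1, Cd34 and Hmcn2) were 4.58-fold to 13.1-fold higher than in the other cells of the same library in GFP+, and 4.61-fold to 10.4-fold higher in GFP-. Over all genes at 20 CPM or more 10.7% (GFP+) and 9.63% (GFP-) were at least 2-fold higher and 14.5% and 10.4% lower; 0 members were 2-fold lower. Calcr, Cd34 and Tenm4 in both libraries and Hmcn2 in GFP- reached 20 CPM through the Erfe-high cells alone, so these counts are a description and no support. The Erfe-high cells had fewer UMIs than their libraries, with medians of 7256 in GFP+ and 8375 in GFP-. Pax7 stood at 472 and 365 CPM in them and Myog at 27.6 and 16.6 CPM, beside 879 and 771 CPM of Myog over all cells. Fos, an immediate early gene that also responds to cell isolation, stood at 1157 and 896 CPM in the Erfe-high cells and 1032 and 574 CPM in the Chodl-high cells, beside 586 and 333 CPM over all cells. The part of depth and of Fos in the members' levels was not tested. In GFP+ 83.9% of Erfe-high cells lay in the cluster led by Erfe and Chrdl2, and in GFP- 35.7%, with 50% in the cluster led by Chodl and Itih5.

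Gas1 stood at 1079 CPM (994 to 1170) in the GFP+ Erfe-high cells, against 141 CPM in the other GFP+ cells, 7.68-fold (6.97 to 8.44). In GFP- the Gas1 values were 485 and 105 CPM, 4.61-fold (3.80 to 5.53). Cd34 had the largest ratio of the 8 in GFP+, with 116 CPM in Erfe-high and 8.83 CPM in other cells (13.1-fold, 9.44 to 18.2). In GFP- it was at 49.8 and 4.84 CPM (10.3-fold, 5.23 to 18.4, from 12 UMIs in the class), and 17.9-fold without the cells that held endothelial UMIs. Hmcn2 was at 396 and 45.8 CPM in GFP+ (8.64-fold) and at 187 and 18.0 CPM in GFP- (10.4-fold).

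Calcr stood at 55.3 CPM in Erfe-high and 7.17 CPM in other GFP+ cells (7.71-fold, 4.90 to 11.8), and at 24.9 and 2.86 CPM in GFP- (8.69-fold, 3.13 to 19.5, from 6 UMIs). Chodl was at 786 and 132 CPM in GFP+ (5.98-fold) and 548 and 87.3 CPM in GFP- (6.27-fold). Tenm4 was 4.58-fold higher in GFP+ and 7.64-fold higher in GFP-. The 2 remaining members differed less: Vcam1 was 1.63-fold (1.41 to 1.87) and 1.49-fold (1.20 to 1.84) higher, and Megf10 was 1.78-fold (1.27 to 2.44) higher in GFP+ and at 0.932-fold (0.481 to 1.63) in GFP-.

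The Erfe class is a range cut from a per-cell level: 168 GFP+ and 286 GFP- cells had at least 1 Erfe UMI. With that looser limit 6 members were still at least 2-fold higher in GFP+, but 0 were in GFP-, where Cd34 stood at 0.994-fold. No share over all genes was taken at this limit.

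In Chodl-high cells, where Chodl itself is set by the class, 6 of the other 7 members were at least 2-fold higher in GFP+ and 4 of 7 in GFP-. Among members that reached 20 CPM it was 6 of 7 in GFP+ and 2 of 5 in GFP- (Tenm4 and Hmcn2), again in part through the class alone. Of all genes at that level 7.56% and 3.85% were 2-fold higher and 9.5% and 5.53% lower, and 0 members were 2-fold lower. Hmcn2 was at 256 CPM in GFP+ Chodl-high cells and 15.2 CPM in the other cells (16.8-fold, 14.0 to 20.3), and at 91.8 and 8.17 CPM in GFP- (11.2-fold, 9.755 to 12.97). Calcr was 13.8-fold higher in GFP+ (37.2 against 2.69 CPM) and 18.1-fold higher in GFP- (16.9 against 0.933 CPM). Tenm4 was at 78.3 and 6.21 CPM (12.6-fold) in GFP+ and at 59.6 and 7.98 CPM (7.47-fold) in GFP-. In both libraries the matrix protein, the calcitonin receptor and the teneurin had the largest ratios of the 7.

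Gas1 and Cd34 had larger ratios in GFP+ than in GFP-. Gas1 was 5.30-fold higher (4.86 to 5.77) in GFP+ Chodl-high cells and 1.94-fold higher (1.81 to 2.07) in GFP-. Cd34 was 9.53-fold higher (6.78 to 13.6) in GFP+ and 2.25-fold higher (1.63 to 3.06) in GFP-, or 4.85-fold (3.37 to 6.92) without the cells that held endothelial UMIs. Vcam1 was 2.19-fold higher (2.03 to 2.37) and 1.88-fold higher (1.79 to 1.97), and in GFP+ it was 1.999-fold when cells of other types were left out. Megf10 stood at 1.46-fold (1.20 to 1.78) in GFP+ and at 1.01-fold (0.889 to 1.14) in GFP-. Across all genes 2.19% of 5528 were at least 2-fold higher in both classes of both libraries. Of the 6 members that could be counted there Chodl, Tenm4 and Hmcn2 were among them, Chodl partly by the class rule. Tenm4 and Hmcn2 reached 20 CPM in part through the classes alone, so this count is a description and no support.

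**Figure D2:**
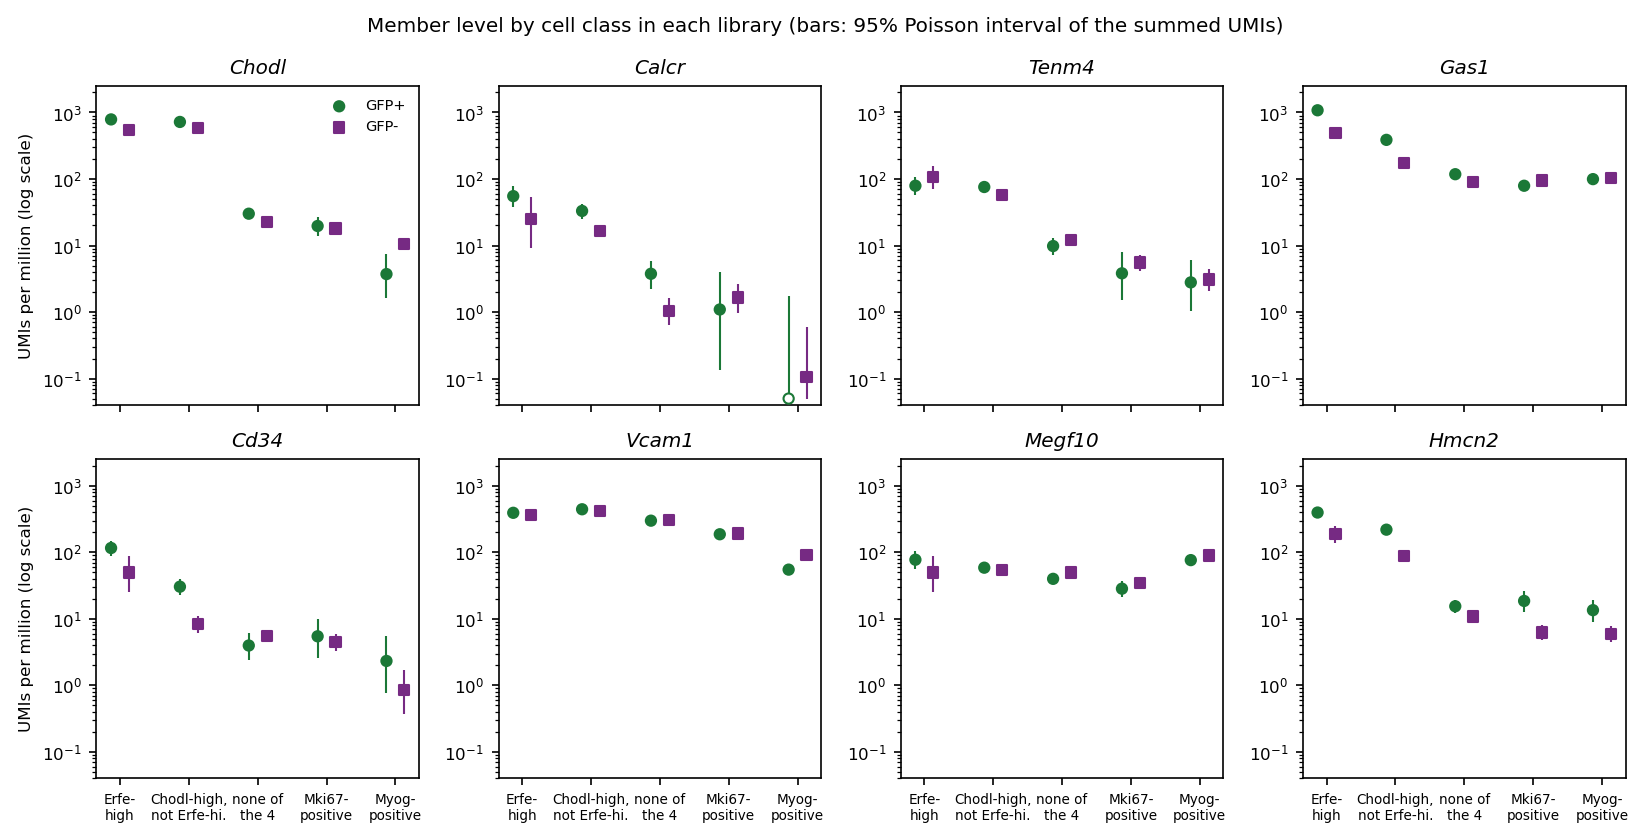
Level of each member in CPM (vertical axis, log scale) in Erfe-high cells, Chodl-high cells that are not Erfe-high, myogenic cells of none of the 4 classes, Mki67-positive cells and Myog-positive cells, for GFP+ (circles) and GFP- (squares); bars are 95% Poisson intervals and the open circle marks 0 UMIs. Chodl, Calcr, Tenm4, Cd34 and Hmcn2 have their highest levels in the 2 groups at the left in both libraries, Vcam1 is lowest in Myog-positive cells, and Megf10 is higher in Myog-positive than in Mki67-positive cells of both libraries.

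Of the Erfe-high cells 52 of 62 in GFP+ and 16 of 28 in GFP- were also Chodl-high, so the classes overlap. Erfe-high cells were therefore set against the Chodl-high cells that were not Erfe-high. Cd34 was 3.82-fold higher in the Erfe-high cells of GFP+ (116 against 30.4 CPM) and 6.01-fold higher in those of GFP- (49.8 against 8.28 CPM). Gas1 was 2.79-fold and 2.78-fold higher, and Hmcn2 1.81-fold and 2.14-fold higher. Vcam1 stood at 0.885-fold and 0.881-fold and Megf10 at 1.32-fold and 0.928-fold. Tenm4 was at 1.05-fold in GFP+ and 1.86-fold in GFP-, and Calcr at 1.67-fold and 1.5-fold. Of all genes 4.44% in GFP+ and 6.88% in GFP- were 2-fold higher in this comparison, against 2 and 3 of the 8 members, and 5.59% and 5.02% were 2-fold lower, against 0 members. In GFP- Cd34 and Calcr reached 20 CPM through the Erfe-high cells alone, so these counts are a description and no support. The intervals of Cd34, Gas1 and Hmcn2 lay above 1 in both libraries, and those of Vcam1 and Megf10 included 1.

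A member can also differ between the libraries within a class. Within Chodl-high cells Cd34 was 5.01-fold higher (3.61 to 7.02) in GFP+, Gas1 2.86-fold (2.63 to 3.1), Hmcn2 2.79-fold (2.48 to 3.14) and Calcr 2.20-fold (1.63 to 2.98). Tenm4 was at 1.31-fold, Chodl at 1.28-fold, Megf10 at 1.13-fold and Vcam1 at 1.07-fold. Different clusters held most of the class in the libraries: 52.1% of GFP+ Chodl-high cells lay in the cluster led by Erfe and Chrdl2, and 81.7% of GFP- ones in the cluster led by Chodl and Itih5. Within each of these clusters the differences were smaller. In the first Gas1 was 1.37-fold higher (1.16 to 1.63) in GFP+, Hmcn2 1.44-fold (1.11 to 1.89) and Cd34 1.26-fold (0.773 to 2.14), while Chodl stood at 0.933-fold (0.797 to 1.1). In the second Gas1 was 1.72-fold higher (1.56 to 1.88), Hmcn2 1.76-fold (1.51 to 2.05) and Calcr 1.62-fold (1.10 to 2.35). Cd34 was there at 0.815-fold with all cells and at 2.03-fold (1.29 to 3.14) without the cells that held endothelial UMIs.

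Ordering the cells of myogenic clusters by their own Chodl level showed how gradual these relations were. Cells with 0 Chodl UMIs numbered 238 in GFP+ and 1671 in GFP-, and those with 10 or more per 10000 UMIs 64 and 92; another 68 and 287 cells lay above 0 but under the class limit of 2 per 10000. Tenm4 was higher at each step in both libraries, from 4.05 to 124 CPM in GFP+ and from 4.93 to 81.4 CPM in GFP-. Hmcn2 went from 7.20 to 375 CPM in GFP+ and from 5.89 to 201 CPM in GFP-. Vcam1 was close in both, from 194 to 491 CPM in GFP+ and from 212 to 501 CPM in GFP-.

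For Gas1, Hmcn2, Cd34 and Calcr the libraries differed in the middle of this range. In cells with 2 to under 5 Chodl UMIs per 10000 Gas1 was at 492 CPM in GFP+ and 146 CPM in GFP-, Hmcn2 at 224 and 61.5 CPM, Cd34 at 46.7 and 4.53 CPM, and Calcr at 35.5 and 12.3 CPM. Of these cells 15 of 65 in GFP+ and 9 of 243 in GFP- were Erfe-high. In cells with 0 Chodl UMIs Gas1 stood at 86.4 and 88.0 CPM, Hmcn2 at 7.20 and 5.89 CPM and Calcr at 0.750 and 0.512 CPM. Cd34 was lower in GFP+ there, at 1.95 CPM (1.04 to 3.34) against 4.26 CPM (3.56 to 5.04), opposite to the middle of the range. Of the 133 Cd34 UMIs behind this GFP- value, however, 91 came from the cells with endothelial UMIs described above. The Cd34 level of this group without those cells was not taken. Megf10 stayed between 39.9 and 73.0 CPM in GFP+ and between 49.3 and 66.2 CPM in GFP-, with overlapping intervals at the extremes of the range in GFP-. Median UMIs per cell went down along the same order, from 25687 to 6570 in GFP+ and from 16778 to 7429 in GFP-; their part in the trend was not tested.

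**Figure D3:**
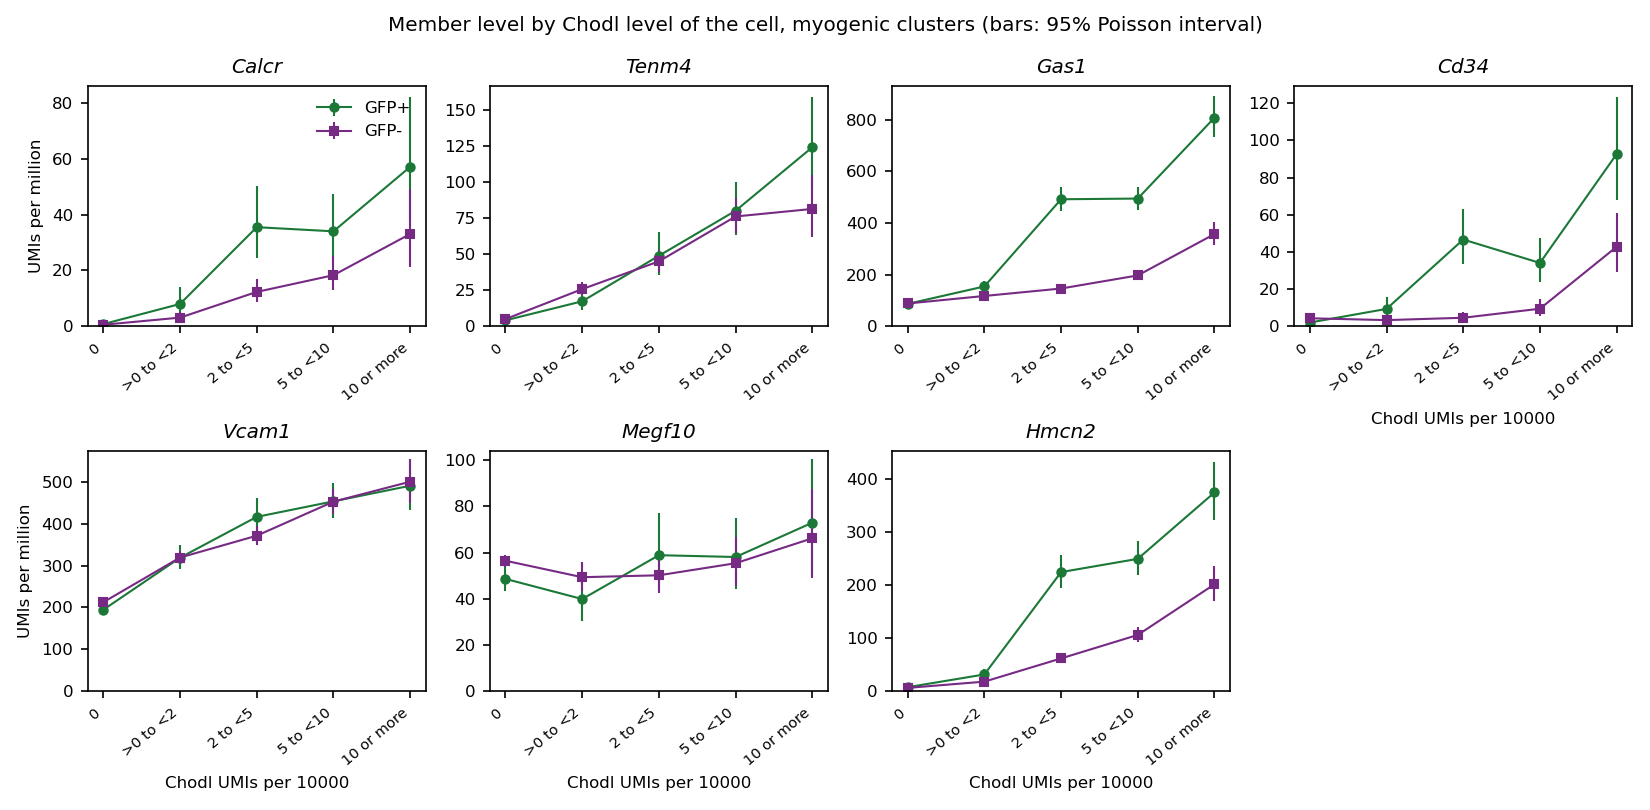
Level of the other 7 members in CPM (vertical axes, linear) in myogenic cells grouped by their Chodl UMIs per 10000 (horizontal axis), GFP+ circles and GFP- squares, with 95% Poisson intervals. Vcam1 and Tenm4 are at similar levels in both libraries in most groups, Gas1, Hmcn2, Calcr and Cd34 are higher in GFP+ in the groups with 2 or more, and Megf10 stays between 39.9 and 73.0 CPM.

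Cycling cells, taken as those with at least 2 UMIs of Mki67, the gene of a proliferation antigen, numbered 50 in GFP+ and 379 in GFP-, of which 7 and 24 lay in clusters of other cell types. Chodl was at 19.7 CPM in them against 187 CPM in the other GFP+ cells (0.105-fold, 0.0734 to 0.146) and at 18.0 against 112 CPM in GFP- (0.162-fold, 0.139 to 0.188). Hmcn2 was at 0.267-fold and 0.275-fold, Tenm4 at 0.166-fold and 0.320-fold, and Calcr at 0.101-fold (from 2 UMIs, 0.0121 to 0.373) and 0.490-fold. Megf10 stood at 0.590-fold and 0.588-fold, Vcam1 at 0.720-fold and 0.733-fold, and Gas1 at 0.392-fold and 0.853-fold. Cd34 was at 0.360-fold in GFP+ and at 0.852-fold (0.602 to 1.18) in GFP-, or 0.551-fold (0.320 to 0.900) without the cells that held endothelial UMIs. In all 6 of 8 members in GFP+ and 4 of 8 in GFP- were at least 2-fold lower. Of those at 20 CPM or more it was 4 of 6 and 2 of 5, against 4.54% and 3.19% of all genes at that level, and 0 members were 2-fold higher, against 7.56% and 6.06%. Chodl and Hmcn2 in both libraries and Tenm4 in GFP+ reached 20 CPM through the other cells alone, so these counts are a description and no support.

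The distance depended on the reference, which holds the Chodl-high cells. Against the myogenic cells of none of the 4 classes, a reference added after the data were seen, 2 members in GFP+ and 1 in GFP- were at least 2-fold lower in Mki67-positive cells. The share over all genes was not taken for this reference. Calcr, counted in GFP+ at 0.290-fold from 2 UMIs, had an interval that included 1 (0.0327 to 1.21). Tenm4 was lower in both libraries (0.389-fold and 0.460-fold), as were Chodl (0.653-fold and 0.804-fold), Vcam1 (0.625-fold and 0.629-fold) and Megf10 (0.712-fold and 0.699-fold). Hmcn2 was at 1.20-fold in GFP+ and 0.577-fold in GFP-. Megf10 thus had its lowest level of the 5 groups of cells in Mki67-positive cells, 28.4 CPM (21.2 to 37.2) in GFP+ and 34.7 CPM (31.2 to 38.5) in GFP-, although its interval overlapped that of the cells of none of the 4 classes in GFP+ and that of the Erfe-high cells in GFP-.

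Cells committed to differentiation, Myog-positive by at least 3 UMIs and at least 2 per 10000, numbered 76 in GFP+ and 462 in GFP-. Calcr had 0 UMIs in the GFP+ Myog-positive cells, which allows up to 1.395 CPM by the limit of 3 counts over the group and puts it at least 8.17-fold lower than in the other GFP+ cells. In GFP- it had 1 UMI (0.0283-fold, 0.000711 to 0.160). Chodl was at 3.72 CPM in GFP+ (0.0190-fold) and 10.52 CPM in GFP- (0.0946-fold). Tenm4 stood at 0.117-fold and 0.174-fold, Cd34 at 0.144-fold and 0.137-fold, and Hmcn2 at 0.187-fold and 0.266-fold. Without the cells that held endothelial UMIs the GFP- value of Cd34 was 0.234-fold.

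Vcam1 and Gas1 behaved unlike each other in these cells. Vcam1 was at 54.9 CPM against 290 CPM in the other GFP+ cells (0.189-fold) and at 90.3 against 287 CPM in GFP- (0.315-fold). Gas1 was at 99.5 against 201 CPM in GFP+ (0.494-fold) but at 103 against 109 CPM in GFP- (0.947-fold, 0.882 to 1.02), and against cells of none of the 4 classes it stood at 0.843-fold and 1.14-fold. Megf10 was higher: 76.3 against 38.3 CPM in GFP+ (1.99-fold, 1.65 to 2.40) and 89.4 against 43.6 CPM in GFP- (2.05-fold, 1.88 to 2.23). Against cells of none of the 4 classes Megf10 was 1.91-fold and 1.8-fold higher. At least 2-fold lower in Myog-positive cells were 7 of the 8 members in GFP+ and 6 in GFP-. Of those at 20 CPM or more it was 5 of 6 and 3 of 5, against 15.4% and 8.39% of all genes at that level. Here too Chodl and Hmcn2 in both libraries and Tenm4 in GFP+ reached 20 CPM through the other cells alone, so these counts are a description and no support. At least 2-fold higher were 0 and 1 (Megf10), against 6.47% and 4.95% of all genes. With the cells of none of the 4 classes as the reference 4 members in GFP+ and 5 in GFP- were at least 2-fold lower. No share over all genes was taken for that reference.

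Some of these levels lie at or under those of empty droplets. Barcodes with 1 to 100 UMIs held Chodl at 105 CPM in GFP+ and 61.8 CPM in GFP-, Hmcn2 at 73.0 and 27.6 CPM, Calcr at 10.0 and 1.49 CPM, and Cd34 at 12.2 and 4.75 CPM. Genes of other cells can be followed as gauges of free RNA, and they differed widely: Lyz2 stood at 2196 CPM in GFP+ empty droplets and at 5.19 CPM in GFP+ Chodl-high cells, and at 513 and 4.40 CPM in GFP-. In GFP- Rgs5, a gene of mural cells, stood at 175 CPM in empty droplets and 28.0 CPM in Chodl-high cells, and Myog at 731 and 25.3 CPM. The levels of Chodl, Hmcn2, Cd34 and Tenm4 in Mki67-positive and Myog-positive cells were under those of the empty droplets. Tenm4 stood at 12.2 CPM in GFP+ and 6.54 CPM in GFP- empty droplets. Also under the empty droplets were Calcr and Vcam1 (183.9 and 190.5 CPM) in Myog-positive cells. The same held for Megf10 (45.8 and 63.3 CPM) in Mki67-positive cells. The part of free RNA in all these levels was not tested.

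To see whether members are found in the same cells, UMIs were drawn down to 2500 per cell. Shallower cells, 17 in GFP+ and 78 in GFP-, could not be used. Chodl was then detected in 33.4% of GFP+ cells (29.6 to 37.4%) and 18.3% of GFP- cells, and before thinning in 46.5% and 30.5%. Hmcn2 was detected in 21.5% and 5.53%, Gas1 in 33.6% and 22.6%, Tenm4 in 9.03% and 5.30%, Cd34 in 6.47% and 1.34%, and Calcr in 4.09% and 1.38% of thinned cells. Before thinning these shares were 37.6% and 16.3% for Hmcn2, 69.5% and 64.5% for Gas1, 24.8% and 16.7% for Tenm4, 17.1% and 4.55% for Cd34, and 11.6% and 4.06% for Calcr. These 6 shares were higher in GFP+ with intervals apart. At 5000 UMIs and without thinning 5 were. The share of all genes with intervals apart was not taken, so these counts are a description and no support. Vcam1 was detected in 40.6% and 42.5% and Megf10 in 13.5% and 12.8% (76.7% and 80.0%, and 46.7% and 47.8%, before thinning). In the macrophage cluster, at the same depth, Chodl was found in 0 of 74 GFP+ cells, which allows up to 4.05%, and in 1 of 52 GFP- cells.

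Counting the 7 members other than Chodl, at least 3 were detected in 56.5% of Erfe-high and 44.3% of Chodl-high GFP+ cells, and in 50% (13 of 26 cells) and 17.8% of those in GFP-. The corresponding shares were 4.08% and 0.531% of Mki67-positive cells and 4.0% and 0.437% of Myog-positive cells in GFP+ and GFP-. Among myogenic cells of none of the 4 classes they were 6.60% and 3.48%.

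Of the 28 pairs of members 15 were found together more often than their separate shares give, with the interval above 1 in both libraries. Chodl and Hmcn2 shared 96 GFP+ cells where 42.1 were expected (2.28 times, 1.85 to 2.79) and 84 GFP- cells where 26.4 were expected (3.19 times, 2.54 to 3.94). Chodl and Tenm4 shared 2.32 and 3.01 times the expected number, Chodl and Calcr 2.75 and 3.79 times, and Chodl and Cd34 2.44 and 2.97 times. Tenm4 and Hmcn2 shared 2.55 and 3.80 times, and Cd34 and Hmcn2 2.70 and 5.69 times. The highest value, that of Calcr and Cd34 (3.86 and 8.27 times), rests on 6 GFP+ and 4 GFP- cells. These values describe libraries that hold cells of many states. Pairs of other genes were not counted, so the 15 of 28 is a description and no support.

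Vcam1 and Gas1 each met this criterion in 3 of their 7 pairs. Vcam1 stood with Chodl at 1.44 and 1.41 times the expected number, with Tenm4 at 1.63 and 1.33 times, with Hmcn2 at 1.39 and 1.41 times and with Gas1 at 1.26 and 1.07 times. A gene detected in as many cells as Vcam1 cannot reach the high values of rarer ones. For Megf10 0 of its 7 pairs had an interval above 1 in both libraries, although it stood with Hmcn2 at 1.65 times (1.10 to 2.39) in GFP+ (1.25 in GFP-). With Vcam1 it stood at 0.999 and 1.07 times. Without the Erfe-high cells 13 pairs still met the criterion, and without clusters of other cell types also 13. Tenm4 with Cd34 met it in neither set, and Calcr with Cd34 did not without the Erfe-high cells.

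**Figure D4:**
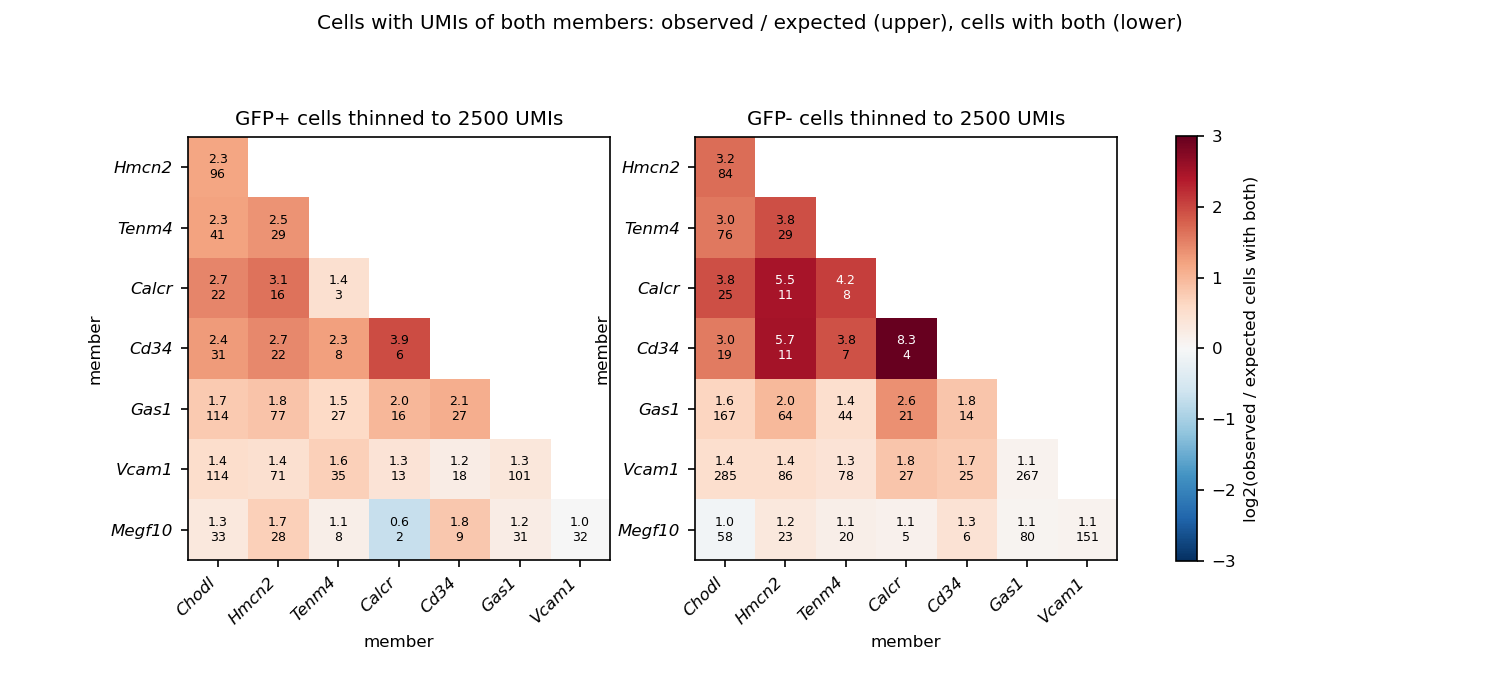
Each square gives, for a pair of members (axes), the number of cells with UMIs of both over the number expected from their separate shares (upper figure in the square, colour on a log2 scale) and the number of such cells (lower figure), in GFP+ and GFP- cells thinned to 2500 UMIs. Pairs among Chodl, Hmcn2, Tenm4, Calcr and Cd34 are above 1 in both libraries. In GFP+ the value of Calcr and Tenm4, 1.38, rests on 3 cells, and its interval includes 1 (0.286 to 4.05). The row of Megf10 runs from 0.619 to 1.76 in GFP+ and from 0.951 to 1.34 in GFP-.

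Pearson correlations of log counts per 10000 across cells, given as a description over 604 and 2683 cells that share their libraries and depth, ordered the pairs differently from the counts of shared cells. Chodl and Hmcn2 had r = 0.699 in GFP+ and 0.517 in GFP-, Chodl and Tenm4 0.513 and 0.457, and Chodl and Gas1 0.570 and 0.269. In the cells of myogenic clusters (519 and 2476), among 9625 genes detected in at least 5% of cells of both libraries, the genes most like Chodl were Gnas (mean r over both libraries 0.711), Apoe (0.689) and Errfi1 (0.664). Chodl itself was the gene most like Tenm4 (0.469), Gas1 (0.407) and Hmcn2 (0.593). The genes most like Vcam1 were Col3a1 (0.492), Pax7 (0.433) and Ahnak (0.386). Megf10 had no close companion, with Hip1 at 0.260, Zswim6 at 0.241 and Myog at 0.236. Calcr and Cd34 were detected in under 5% of GFP- cells and were not ranked.

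Clusters built without the 8 members placed the members as follows. In the cluster led by Erfe and Chrdl2, 7 of the 8 members had their highest level of the myogenic clusters with at least 10 cells, in both libraries, with Gas1 at 1141 CPM in GFP+ and 833 CPM in GFP- and Cd34 at 133 and 106 CPM. The cluster led by Chodl and Itih5 came second for these 7, with Vcam1 at 411 and 386 CPM close to its values of 441 and 548 CPM in the first. Megf10 was highest in neither of them, at 76.7 and 63.3 CPM in the first and at 52.6 and 52.1 CPM in the second. The clusters of cells in cycle held Megf10 at 26.6 to 33.4 CPM. The cluster led by Erfe and Chrdl2 had low depth, with medians of 6345 and 3592 UMIs. The share of all genes with their highest level in it was not taken, so the 7 of 8 is a description.

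**Figure D5:**
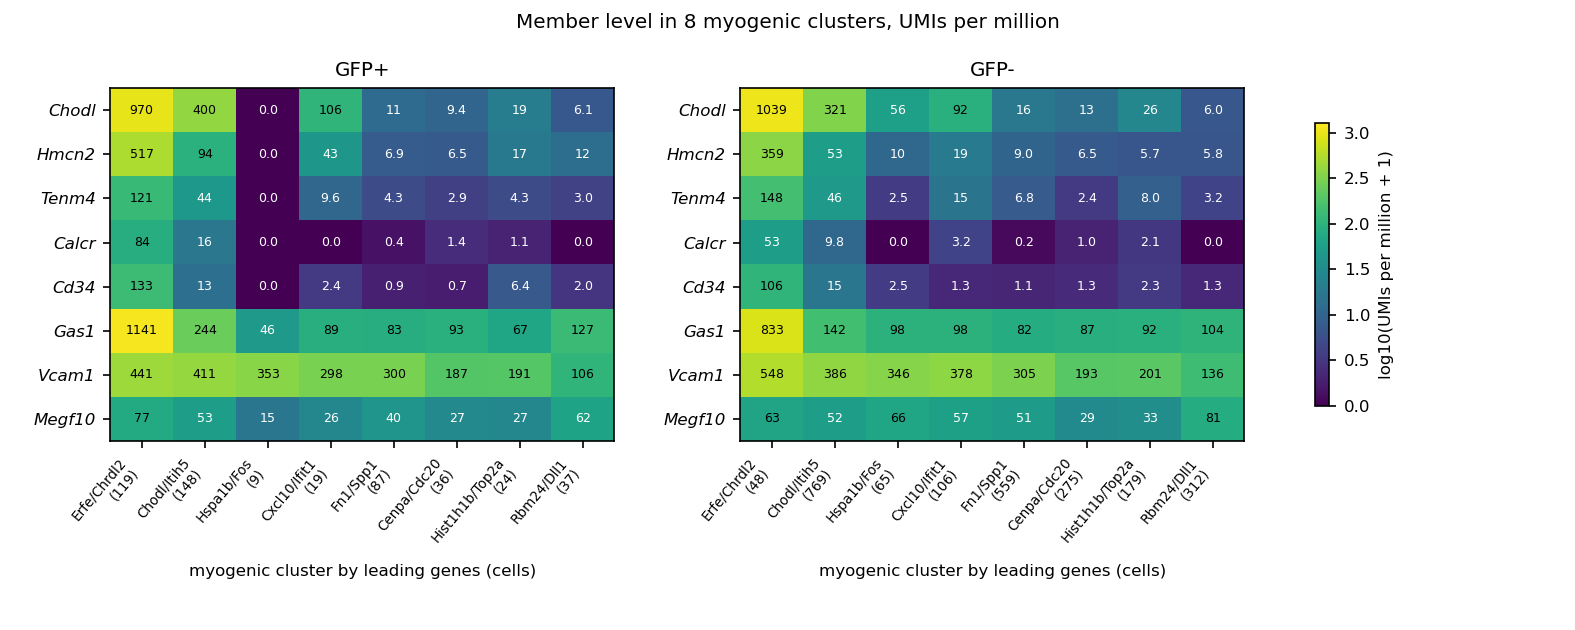
Level of each member in CPM (numbers in the squares, colour on a log10 scale) in 8 myogenic clusters, named by 2 leading genes, with the number of cells in brackets, for GFP+ and GFP-. The 2 clusters at the left of each panel hold the highest levels of 7 members, with Gas1 at 1141 and 833 CPM in the first.

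Known partners of the members were followed from a list of 28 genes, of which 14 to 16 reached 20 CPM in each comparison. In Chodl-high cells 7 of 16 were at least 2-fold higher and 1 (Adgrl2) lower in GFP+, and in GFP- 4 of 14 were higher (Cdon, Col4a1, Col4a2 and Lama2) and 1 (Adgrl2) lower. In Erfe-high cells 3 of 14 were higher in GFP+ (Col5a3, Ret and Col4a1) and 0 lower, and 3 of 16 were higher in GFP- (Boc, Cdon and Gli2) and 1 (Adgrl2) lower. Of these, Cdon, Boc, Col4a2, Col5a3 and Lama2 are named after their values were seen. The list's median in Chodl-high cells was 0.75 in GFP+ and 0.35 in GFP- on the log2 scale, where the medians of all genes were -0.04 and -0.07. In Erfe-high cells it was 0.24 in GFP+ and 0.25 in GFP-, where those of all genes were -0.05 and 0.01. Of all genes 7.56% in GFP+ and 3.85% in GFP- were at least 2-fold higher in Chodl-high cells, and 9.5% and 5.53% lower. In Erfe-high cells 10.7% and 9.63% were higher, and 14.5% and 10.4% lower.

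Cdon, a hedgehog co-receptor of the same pathway as Gas1, was 2.74-fold higher in GFP+ and 2.43-fold higher in GFP- Chodl-high cells. Gli2, a hedgehog transcription factor, stood at 16.0 against 1.97 CPM in GFP+ (8.14-fold) and at 9.14 against 1.79 CPM in GFP- (5.11-fold), under 20 CPM in both. Col4a1, a basement membrane collagen, was 4.45-fold and 2.71-fold higher. Ret, the receptor that Gas1 modulates, was 4.62-fold higher in Erfe-high GFP+ cells and 1.4-fold in GFP-. Adgrl2, a receptor that teneurins bind, stood at 0.471-fold and 0.4995-fold in Chodl-high cells. Itga4, which encodes an integrin chain that binds Vcam1, did not reach 20 CPM.

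Of 28 other quiescence genes, 12 of the 26 that reached 20 CPM were at least 2-fold higher and 1 (Sdc3) lower in GFP+ Chodl-high cells. In GFP- 6 of 22 were higher and 0 lower. The medians were 0.78 and 0.42 on the log2 scale. Of all genes 7.56% in GFP+ and 3.85% in GFP- were at least 2-fold higher in Chodl-high cells, and 10.7% and 9.63% in Erfe-high cells. In Erfe-high cells 11 of 25 were higher and 3 lower (Sdc3, Cdh2 and Cdkn1c) in GFP+, and 2 of 23 were lower (Cdh2 and Cdkn1c) in GFP-. Pax7 was 3.67-fold and 2.55-fold higher in Chodl-high cells. Chrdl2, a secreted inhibitor of BMP signals, was 34.1-fold higher in GFP+ (70.5 against 2.07 CPM) and 11.9-fold higher in GFP- (8.97 against 0.752 CPM). Col15a1 and Pdzd2 were 7.37-fold and 6.17-fold higher in GFP+ Chodl-high cells and stood at 1.29-fold and 1.5-fold in GFP-.

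Lists of cycling and differentiation genes were followed in the same comparisons. Of all genes, 9.5% in GFP+ and 5.53% in GFP- were at least 2-fold lower in Chodl-high cells, and 14.5% and 10.4% in Erfe-high cells. Of 10 activation and cycling genes 5 were at least 2-fold lower in GFP+ Chodl-high cells (Ccna2, Cdk1, Pcna, Mcm5 and Tyms) and 9 in GFP- ones, with 0 higher. Of 9 differentiation genes that could be counted 8 were at least 2-fold lower in each of the 4 comparisons and 0 higher, for example Tnnt2, a troponin, at 0.00394-fold and 0.0249-fold in Chodl-high cells. In the Erfe-high cells 8 of the 10 cycling genes were lower in GFP+ and 4 (Myod1, Ccna2, Mcm5 and Tyms) in GFP-. In these GFP- cells the median of the cycling list was -0.39 on the log2 scale, Mki67 stood at 1.36-fold, Top2a at 1.09-fold and Cdc20 at 1.07-fold, 3 genes named after their values were seen. Of the 28 cells 2 were Mki67-positive.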

How the data were processed

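The deposited matrices list each library's UMI counts, not normalized, with empty droplets included and 32286 features, made with Cell Ranger 4 per the file headers; the submitters' processing notes also name Seurat and the build mm10. For the counting settings and annotation release: not given in the sources used here. The 8 members, the companion lists and the class limits were chosen with earlier results of these data known.

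UMIs of all kept cells of a library or class were summed and scaled to the summed total of the same cells (CPM). Ratios have Clopper-Pearson conditional intervals, levels exact Poisson and shares exact binomial ones. A gene with 0 UMIs was set against 3 counts over the group. Genes reaching 20 CPM in at least 1 of the groups compared formed the background. Both libraries were clustered together (scanpy 1.11.5, 2000 variable genes without the members, Erfe, Pax3 and technical gene classes, 30 components, 15 neighbours, Leiden resolution 0.6). A cluster counted as another type if a list of another cell type stood more than 2 log2 units above the other clusters. Only lists with at least 3 genes at 20 CPM in the cluster were used. The endothelial list stood 2.48 log2 units higher in the cluster led by Chodl and Itih5. As 0 of its genes reached 20 CPM there, that cluster counted as myogenic. Scrublet (expected rate 0.08) marked 0.497% of GFP+ and 0.112% of GFP- cells. Named genes were the members, the class and sort genes, the 3 genes most like each member detected in at least 5% of cells of both libraries, and up to 4 genes per companion list with the largest change. GENCODE M21 matched 32158 feature IDs. Calculations were checked on simulated counts. Scripts ran under Python 3.11.15 with scipy 1.17.1 and pandas 2.3.3, and TMM scaling, an alternative only, under edgeR 4.0.16. Some genes, and a myogenic cluster, are not reported here.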

Additional observations from a re-analysis of the deposited data

Results flagged for a closer look

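The ratio between the libraries pointed in opposite directions in different classes for 2 members, and the difference between the classes was not tested. Chodl was 1.44 times as high in GFP+ as in GFP- Erfe-high cells (1.18 to 1.76), where it was not part of the class rule, with different clusters holding most of the class in each, but 0.354 times as high in Myog-positive cells (0.149 to 0.724), from 8 GFP+ UMIs. Both Myog-positive levels, 3.72 and 10.52 CPM, lay under those of the empty droplets, 105 and 61.8 CPM. Gas1 was 2.86 times as high in GFP+ Chodl-high cells (2.63 to 3.1) and 0.834 times as high in Mki67-positive cells (0.696 to 0.994).

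Barcodes over the mitochondrial limit, left out of all comparisons, numbered 32 in GFP+ and 343 in GFP-. Megf10 stood in them at 153 CPM in GFP+ (85.6 to 252) and 93.6 CPM in GFP- (76.4 to 114), above its levels of 45.1 and 53.4 CPM in the kept cells. Hmcn2 stood at 51.8 CPM (39.2 to 67.1) in those of GFP-, above 18.9 CPM in the kept cells, but in GFP+ it stood at 20.4 CPM (2.47 to 73.7) in such barcodes and 61.7 CPM in the kept cells.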

How the results depend on the processing

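No paired analysis was possible because each sorted fraction gave 1 library, and for the same reason no replicate could be left out. The number of members at least 2-fold higher in GFP+ (3) became 5 with the mean of per-cell values, where Chodl (2.25) and Gas1 (2.63) passed, 0 without the cluster led by Erfe and Chrdl2, and 1 (Cd34, 2.13) without that cluster and the cells with endothelial UMIs; it stayed between 2 and 4 under the other alternatives, TMM scaling among them. The number at least 2-fold higher in Erfe-high GFP- cells (6) fell to 0 when 1 Erfe UMI sufficed for the class, with Cd34 at 0.994-fold. Against cells of none of the 4 classes the number at least 2-fold lower in Mki67-positive cells fell from 6 to 2 in GFP+ and from 4 to 1 in GFP-, and in Myog-positive GFP+ cells from 7 to 4; Cd34 (1.38) and Hmcn2 (1.20) in GFP+ and Calcr (1.59) in GFP- then stood above 1 in Mki67-positive cells. In those comparisons the reference holds no Chodl-high cells by construction, and otherwise the cause was not tested. Shares over all genes were not taken for that reference or for the limit of 1 Erfe UMI. Leaving out cells with endothelial UMIs raised the Cd34 ratio between the libraries from 2.69 to 4.51. Of 104 single ratios between the libraries 60 stayed within the interval of the main value and 8 crossed 1; of 496 class ratios 354 stayed within it and 14 crossed 1. The share of all genes 2-fold higher in GFP+ rose from 3.8% to 5.17% at 5 CPM and 13.1% for all genes with a UMI. Doublets could not be judged from the caller. Calcr and Cd34 rest on few UMIs, so their order among the classes with low values was not detectable at this depth.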
